A study of Mus musculus with 7 samples.

Results

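Expression of 9 kidney transporters for organic anions and organic cations was measured by RNA sequencing in renal tissue of 7 mice. The 9 genes (Slc22a2, Slc22a6, Slc22a7, Slc22a8, Slc22a12, Slco1a1, Slco4c1, Slc47a1 and Abcc2) were taken by symbol from the 17537 genes of the expression table, and all 9 were present and passed the filter on low values. The libraries, 1 per mouse, came from nondiabetic controls (C, n = 3, replicates 2, 8 and 9), diabetic mice (DM-22, n = 2, replicates 1 and 2) and diabetic mice that received an SGLT2 inhibitor (DM+SGLT2i, n = 2, replicates 1 and 2). All mice were wild-type C57BL/6, aged 8 to 10 weeks at the start, and followed for 22 weeks. Streptozotocin (STZ), a toxin of pancreatic beta cells, was injected at 60 mg/kg on 5 days in the DM-22 and DM+SGLT2i mice. Dapagliflozin, an inhibitor of the proximal tubule glucose carrier SGLT2, was added to the drinking water at 25 mg/kg for the last 6 weeks, from week 16, in the DM+SGLT2i mice. The labels give male mice, and 4 Y-linked genes summed to between 97.9 and 156 CPM (counts relative to a common library total, normalized between libraries) in the 7 libraries, whereas the study's methods name both sexes. Which zone of the kidney each piece of tissue held is not given in the sources used here.

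The proximal tubule clears drugs, toxins, uremic solutes and metabolites from blood to urine in a sequence of carriers. Uptake from blood across the basolateral membrane runs for anions through OAT1 (Slc22a6) and OAT3 (Slc22a8), which exchange them for dicarboxylates, and for cations through OCT2 (Slc22a2), and release into the lumen runs through MATE1 (Slc47a1) and the ATP-driven pump MRP2 (Abcc2). URAT1 (Slc22a12) works in the opposite direction and reabsorbs urate from the lumen. The transcription factor HNF4A is known to drive genes of this set. In the mouse kidney several of these carriers are known to differ between the sexes, Slco1a1 being an androgen-dependent gene of males.

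Promoter sequence is shown for 3 of the genes, because Slc22a6 and Slc22a8, neighbours on chromosome 19 with similar profiles over the mice, can be set beside Slco4c1, whose profile ran the opposite way. The sequences are the 250 bases upstream of the RefSeq start (build GRCm38.p6), in the direction of the gene, with motif matches in capitals. The Slc22a6 sequence is chr19:8617746-8617995 on the plus strand, with no annotated exon. The Slc22a8 sequence is chr19:8592932-8593181 on the plus strand, overlapping an annotated exon of the gene. The Slco4c1 sequence is chr1:96872172-96872421 on the minus strand, overlapping the antisense transcript Panct2.
Slc22a6: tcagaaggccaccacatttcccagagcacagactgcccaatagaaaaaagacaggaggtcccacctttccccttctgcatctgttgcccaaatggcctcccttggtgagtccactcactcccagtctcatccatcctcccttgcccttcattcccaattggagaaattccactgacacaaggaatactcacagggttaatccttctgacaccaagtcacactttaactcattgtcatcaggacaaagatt
Slc22a8: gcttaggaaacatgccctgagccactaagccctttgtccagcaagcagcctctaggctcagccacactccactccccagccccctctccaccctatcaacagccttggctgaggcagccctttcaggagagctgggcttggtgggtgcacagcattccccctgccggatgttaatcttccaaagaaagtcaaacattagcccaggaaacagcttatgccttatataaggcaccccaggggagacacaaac
Slco4c1: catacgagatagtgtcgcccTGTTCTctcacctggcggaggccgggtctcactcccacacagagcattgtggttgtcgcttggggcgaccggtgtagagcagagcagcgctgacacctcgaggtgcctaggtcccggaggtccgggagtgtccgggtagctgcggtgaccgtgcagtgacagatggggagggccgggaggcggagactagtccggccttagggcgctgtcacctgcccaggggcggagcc

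A RefSeq promoter entry was found for 7 of the 9 transporter genes (all except Slc22a7 and Slc47a1), and both strands were searched. The HNF4 motif CAAAGTCCA was found in 0 of 7 and in 0.384% of 32851 promoters of the same length. The steroid receptor motif AGAACA was found in 1 of 7, on the opposite strand of Slco4c1 from 230 to 225 bases upstream (printed as TGTTCT), and in 16.1% of all promoters. The searched motifs do not overlap each other in these windows. These matches describe the letters only.

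Reads on listed genes numbered from 46456125 to 56541594 per library, so that 1 read was worth at most 0.0231 CPM. C replicate 2 stood apart from the other controls before any comparison, and comparisons of the transporters with C are therefore given with and without it. Its summed proximal tubule markers (16 genes, 14 of them lower than in both other controls) were 14355 CPM against 44728 and 41326 CPM in C replicates 8 and 9. This list shares the androgen-dependent gene Kap with the male-biased list, and its other 15 genes summed to 12264 CPM against 27155 and 24457 CPM. Male-biased kidney genes (8 genes, 8 lower) were 3485 CPM against 26563 and 26247 CPM, female-biased genes (4 genes, 4 higher) 1115 CPM against 57.8 and 24.2 CPM, and tubular injury genes (6 genes, 6 higher) 6236 CPM against 931 and 761 CPM. Markers of some nephron segments separated the DM-22 mice: thick ascending limb genes (5 genes) summed to 13332 CPM in replicate 1 and 3356 CPM in replicate 2, inner medulla and urothelium genes (5 genes) to 277 and 3.91 CPM, and proximal S1 genes (4 genes) to 490 and 1605 CPM. Proximal S3 genes (6 genes) summed to 4879 and 9674 CPM, although 5 of the 6 were higher in replicate 1. Of the 8 collecting duct genes, 4 were higher in replicate 1 and 4 in replicate 2. In the DM+SGLT2i mice proximal tubule markers were 24205 and 28706 CPM, male-biased genes 8736 and 14989 CPM and female-biased genes 674 and 539 CPM. Fibroblast genes (5 genes) were 510 and 387 CPM in these mice, against 666, 161 and 211 CPM in C and 194 and 136 CPM in DM-22. Adipose genes (4 genes) reached 402 CPM in DM+SGLT2i replicate 1 and lay between 33.4 and 78.9 CPM in the other mice. None of the listed marker genes was at 0 in any library. In whole tissue, fewer proximal tubule cells and less of an mRNA per cell cannot be told apart, and the part of tissue makeup in the results below was not tested.

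The 9 transporters together reached 2946, 6340 and 5799 CPM in C replicates 2, 8 and 9, 3565 and 7145 CPM in DM-22 replicates 1 and 2, and 4755 and 4955 CPM in DM+SGLT2i replicates 1 and 2. The largest contrasts thus lay within C and within DM-22. C replicate 2 was the lowest of the 7 libraries for 7 of the 9 genes and lower than both other controls for 8 of 9, the exception being Slco4c1. DM-22 replicate 2 was the highest of the 7 for Slc22a2, Slc22a6, Slc22a8, Slc22a12 and Slco1a1. The plot of the members by library shows these levels.

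**Figure D1:**
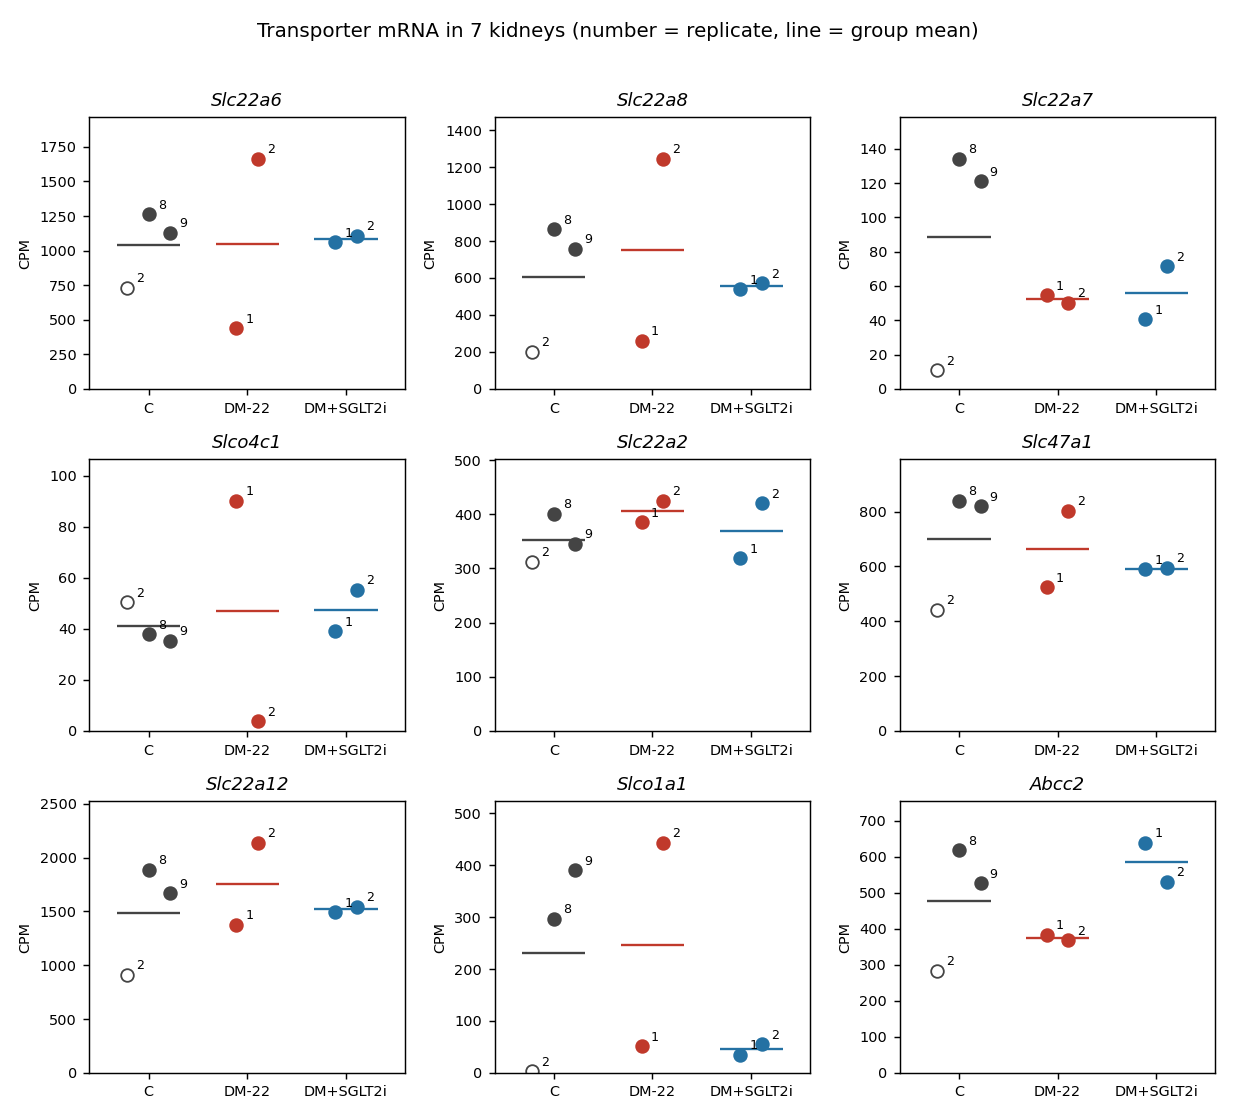
Normalized expression (CPM, vertical axis from 0) of the 9 transporter genes in each mouse, by group, with the replicate number beside each point, the group mean as a line and C replicate 2 as an open circle. DM-22 replicates 1 and 2 lie far apart for Slc22a6, Slc22a8, Slco1a1 and Slco4c1, C replicate 2 lies below the other controls in 8 of 9 panels, and the diabetic mice lie between C replicate 2 and the other controls for Slc22a7.

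Per kilobase of merged exons, the mean over the 7 libraries was highest for Slc22a12, at 696 CPM per kb, followed by Slc22a6 at 265, Slc47a1 at 195, Slc22a8 at 162 and Slc22a2 at 150 CPM per kb. Abcc2 followed at 56.1 CPM per kb, Slco1a1 at 34.5, Slc22a7 at 32.8 and Slco4c1 at 9.08 CPM per kb. Of the 8 pairs of neighbours in this order, the ranges over the libraries were separate only for Slc22a2 and Abcc2. Slc22a12 was above Slc22a6 in 7 of 7 libraries, whereas Slc22a8 was above Slc22a2 in 4 of 7 and Slco1a1 above Slc22a7 in 2 of 7.

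At the threshold of an adjusted p of 0.05 in limma, no transporter passed in any comparison, with or without C replicate 2. With all 3 controls this held for the whole table: 0% of 13976 tested genes passed in each of the 4 comparisons (DM-22 against C, DM+SGLT2i against C, DM+SGLT2i against DM-22, and the 4 diabetic mice together against C). At an unadjusted p under 0.05 in limma, 0 of 9 transporters passed in each comparison, against a background of 4.47%, 1.08%, 3.91% and 1.96% of all genes. Without C replicate 2, 0.0143% (2 genes), 0.122% (17 genes) and 0.0215% (3 genes) of all genes passed the adjusted threshold in the comparisons of DM-22, DM+SGLT2i and all diabetic mice with controls, and 0 of the 9 transporters were among them. With voom on the recovered reads and all 3 controls, 0 genes passed as well. DM-22 and DM+SGLT2i share their controls, so these comparisons are not independent. P-values measure the spread between single mice.

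Slc22a6 (ENSMUSG00000024650, chr19:8618039-8628299) encodes OAT1, the classical basolateral carrier of para-aminohippurate, diuretics and uremic toxins. It was at 731, 1262 and 1130 CPM in C replicates 2, 8 and 9, at 437 and 1665 CPM in DM-22 replicates 1 and 2, and at 1060 and 1108 CPM in DM+SGLT2i replicates 1 and 2. The DM-22 mice held the lowest and the highest of the 7 values, 3.81-fold apart, and enclosed both other groups. The log2 fold change in DM-22 against C was -0.25 (SE 0.56, limma adjusted p = 0.922), and in DM+SGLT2i against C it was 0.10 (SE 0.56, limma adjusted p = 0.9997). Leaving out C replicate 2 gave -0.48 and -0.14 (SE 0.60 for each, limma adjusted p = 0.631 and 0.919), so that the second value turned direction.

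Slc22a8 (chr19:8591254-8611835) encodes OAT3, the basolateral carrier with a wider range of larger anions. It was at 202, 862 and 759 CPM in C, at 261 and 1246 CPM in DM-22, and at 539 and 572 CPM in DM+SGLT2i. C replicate 2 and DM-22 replicate 1 were the lowest of the 7, and DM-22 replicate 2 was 4.77-fold above replicate 1. Against C, DM-22 had a log2 fold change of 0.16 (SE 0.83) with all controls and -0.50 (SE 0.68) without C replicate 2 (limma adjusted p = 0.973 and 0.663). The 2 DM+SGLT2i mice were both below C replicates 8 and 9, at a log2 difference of -0.54 (SE 0.68, limma adjusted p = 0.705), and with all controls the difference was 0.12 (SE 0.83, limma adjusted p = 0.9997).

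The gene with the profile most like that of Slc22a8 was Slc5a2, which encodes SGLT2, the target of dapagliflozin in the S1 segment, with a root mean square difference of 0.14 on the log2 scale over the 7 libraries among 9582 genes of at least 10 CPM. Slc5a2 was at 169, 748 and 664 CPM in C, 274 and 930 CPM in DM-22, and 509 and 479 CPM in DM+SGLT2i. For Slc22a6 the nearest profile was that of the sulfate and oxalate carrier Slc26a1 (0.13). Beside these profiles, the 4 S1 markers summed to 343, 1511 and 1363 CPM in C, 490 and 1605 CPM in DM-22, and 975 and 834 CPM in DM+SGLT2i, and all 4 were higher in DM-22 replicate 2 than in replicate 1. Slc5a2 is itself among those 4. Markers outside the proximal tubule were also higher in DM-22 replicate 2. Distal convoluted tubule genes (3 genes, 3 higher) were at 356 CPM in replicate 1 and 1602 CPM in replicate 2. Podocyte genes (5 genes, 5 higher) were at 300 and 771 CPM. The 5 thick ascending limb genes went the other way. The part of S1 content or of other tissue in the values of Slc22a6 and Slc22a8 was not tested.

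Slc22a2 (chr17:12584132-12628488) encodes OCT2, the basolateral carrier of creatinine, metformin and cisplatin, and varied least. It was at 313, 401 and 346 CPM in C, at 385 and 425 CPM in DM-22, and at 319 and 420 CPM in DM+SGLT2i. The highest of the 7 values was 1.36-fold the lowest, and the groups overlapped. The log2 fold change in DM-22 against C was 0.20, with a 95% interval from -0.26 to 0.67 (limma adjusted p = 0.819), and in DM+SGLT2i against C 0.06, from -0.41 to 0.53 (limma adjusted p = 0.9997). Leaving out C replicate 2 gave 0.12 and -0.02 (SE 0.19 for each, limma adjusted p = 0.718 and 0.959). The mean of C replicates 8 and 9 was 1.19-fold that of C replicate 2, against 4.02-fold for Slc22a8.

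Slc22a7 (chr17:46432183-46438457) encodes OAT2, a carrier of cyclic GMP, prostaglandins and other anions, and was the transporter in which both diabetic groups differed most evenly from C replicates 8 and 9. It was at 10.8, 134 and 121 CPM in C, at 54.5 and 50.3 CPM in DM-22, and at 40.7 and 71.4 CPM in DM+SGLT2i. All 4 diabetic mice were below C replicates 8 and 9 and above C replicate 2, their mean being 42.5% of the mean of C replicates 8 and 9. With all 3 controls the log2 fold change was -0.11 (SE 1.04) in DM-22 and -0.07 (SE 1.04) in DM+SGLT2i (limma adjusted p = 0.983 and 0.9997). Without C replicate 2 it was -1.28 (SE 0.26) in DM-22 and -1.23 (SE 0.26) in DM+SGLT2i (limma adjusted p = 0.0924 and 0.123), and -1.25 (SE 0.21) for all diabetic mice (limma adjusted p = 0.0870). The result thus depends on a library that was 11.8-fold lower than the mean of the other controls.

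The summed proximal tubule markers were also lower in part of the diabetic mice, so Slc22a7 was also scaled to the proximal tubule list without C replicate 2, an alternative added after the data had been seen. On that scale it was at 91.9 and 95.2 in C replicates 8 and 9 and at 75.2, 36.8, 40.5 and 73.6 in the 4 diabetic mice, all 4 again lower, with a log2 difference of -0.80 (SE 0.34, limma adjusted p = 0.228). The genes with the most similar profile were Akr1c14, a hydroxysteroid dehydrogenase, and Serpinf2, which encodes alpha-2-antiplasmin, at a root mean square difference of 0.34 and 0.44. The values of the male-biased list, 3485, 26563 and 26247 CPM in C, 15643 and 29343 CPM in DM-22, and 8736 and 14989 CPM in DM+SGLT2i, were also lowest in C replicate 2, and their part in the level of Slc22a7 was not tested.

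Slco4c1 (chr1:96816270-96872171) encodes OATP4C1, a basolateral carrier of digoxin and thyroid hormones. It was at 50.5, 37.8 and 35.2 CPM in C, at 90.2 and 3.68 CPM in DM-22, and at 39.1 and 55.3 CPM in DM+SGLT2i. DM-22 replicate 1 was 24.5-fold above replicate 2, the largest ratio of any transporter within DM-22 and in the opposite direction to Slc22a6 and Slc22a8, while the other 5 mice lay within 35.2 and 55.3 CPM. The log2 fold change in DM-22 against C was -1.08 (SE 1.14, limma adjusted p = 0.830), and in DM+SGLT2i against C it was 0.19 (SE 1.14, limma adjusted p = 0.9997). Leaving out C replicate 2 gave -0.93 and 0.34 (SE 1.31 for each, limma adjusted p = 0.679 and 0.909). Between the diabetic groups it was 1.27 (SE 1.24, limma adjusted p = 0.881). Its nearest profiles were those of the serine protease inhibitor genes Serpina1f and Serpina1b, at a root mean square difference of 0.22 and 0.33. Beside it, all 5 thick ascending limb genes and all 5 inner medulla and urothelium genes were higher in DM-22 replicate 1 than in replicate 2, and their part in the Slco4c1 values was not tested. Panct2, on the opposite strand at this locus, was between 0.694 and 6.80 CPM, and the strand setting of the counting is not given in the sources used here.

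**Figure D2:**
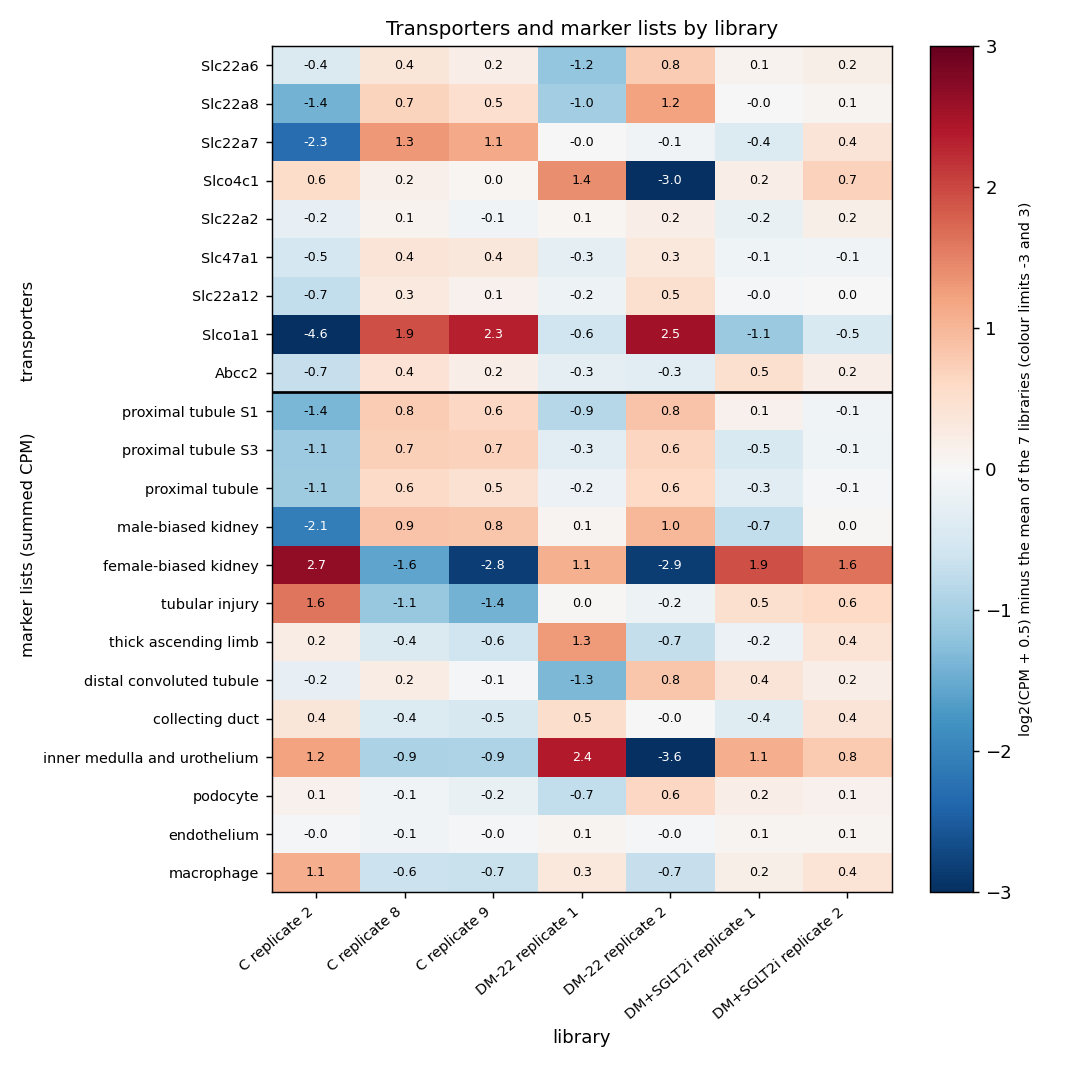
Difference of each library (columns) from the mean of the 7 libraries on the log2(CPM + 0.5) scale, for the 9 transporters (upper rows) and for summed marker lists of cell types, sex-biased genes and tubular injury (lower rows), with colour limits at -3 and 3. Slc22a8 and the S1 markers are low in C replicate 2 and DM-22 replicate 1. Slco1a1 and the male-biased genes are lowest in C replicate 2 and DM+SGLT2i replicate 1. Slco1a1 is also below its mean in DM-22 replicate 1 and DM+SGLT2i replicate 2, where the male-biased genes are near theirs. Slco4c1 and the inner medulla and urothelium list are lowest in DM-22 replicate 2.

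On the luminal side, Slc22a12 (chr19:6535845-6543032) encodes URAT1 and was the most abundant transporter per kilobase. It was at 911, 1887 and 1670 CPM in C, at 1376 and 2140 CPM in DM-22, and at 1493 and 1545 CPM in DM+SGLT2i. C replicate 2 was the lowest, and C replicates 8 and 9 lay between the DM-22 mice. With all controls it differed from C by a log2 fold change of 0.27 (SE 0.39) in DM-22 and 0.10 (SE 0.39) in DM+SGLT2i, and by -0.05 (SE 0.30) and -0.23 (SE 0.30) without C replicate 2 (limma adjusted p = 0.870, 0.9997, 0.932 and 0.722). Nrxn2, which overlaps the gene on the other strand, was between 3.83 and 8.69 CPM.

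Slco1a1 (chr6:141907282-141946962) encodes the rodent carrier OATP1A1, which takes up steroid conjugates and bile salts, and had the widest range. It was at 2.69, 297 and 390 CPM in C, at 50.9 and 443 CPM in DM-22, and at 35.1 and 55.6 CPM in DM+SGLT2i. C replicate 2 was 128-fold below the mean of the other controls, DM-22 replicate 2 was 8.71-fold above DM-22 replicate 1, and the remaining 3 diabetic mice lay between 35.1 and 55.6 CPM. With all 3 controls the log2 fold change was 1.07 (SE 2.12) in DM-22 and -0.68 (SE 2.12) in DM+SGLT2i (limma adjusted p = 0.909 and 0.9997).

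Without C replicate 2 the log2 fold change in DM-22 turned to -1.17 (SE 0.94, limma adjusted p = 0.461). In the same fit Slco1a1 was lower in DM+SGLT2i than in C, at a log2 fold change of -2.93 (SE 0.94, limma adjusted p = 0.202). Both DM+SGLT2i mice were below both controls, as in 33.5% of all genes. After the added scaling to the proximal tubule list, the difference without C replicate 2 was -2.47 (SE 0.47) and passed the threshold (limma adjusted p = 0.00263). Other genes passed under this scaling too, and their count is given in the last section. The scaling was chosen after seeing the data, and its list holds the androgen-dependent gene Kap. On this scale Slco1a1 was at 203 and 307 in C replicates 8 and 9, at 35.0 and 57.3 in DM+SGLT2i, and at 70.2 and 325 in DM-22. DM+SGLT2i against DM-22 did not pass in any setting, with a log2 fold change of -1.76 (95% interval -7.31 to 3.79, limma adjusted p = 0.901).

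The nearest profiles to Slco1a1 were distant, at a root mean square difference of 0.73 for Pzp, an alpha-2-macroglobulin family protease inhibitor, and 0.90 for Slc16a14. Beside Slco1a1, Cyp4a12a, a male-specific arachidonic acid hydroxylase of the male-biased list, was at 16.1, 225 and 326 CPM in C, 36.0 and 424 CPM in DM-22, and 38.6 and 52.4 CPM in DM+SGLT2i. It was singled out after its values were seen, and of the 8 male-biased genes 5 were higher in DM-22 replicate 2 than in replicate 1 and 3 (Cyp7b1, Acsm3 and Slc7a13) lower. The female-biased list was at 1115, 57.8 and 24.2 CPM in C, 366 and 23.7 CPM in DM-22, and 674 and 539 CPM in DM+SGLT2i, so that it was high in the 4 mice in which Slco1a1 was lowest. The part of sex-biased expression in the Slco1a1 values was not tested. Slco1a1 belongs to a cluster of related genes, among which Slco1a4 was between 2.75 and 12.8 CPM and Slco1a6 between 156 and 415 CPM. Whether reads were split among them was not tested.

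Slc47a1 (chr11:61343401-61378345) encodes MATE1, the luminal proton exchanger that completes the excretion of cations taken up by OCT2. It was at 442, 840 and 819 CPM in C, at 525 and 804 CPM in DM-22, and at 589 and 595 CPM in DM+SGLT2i. All 4 diabetic mice were below C replicates 8 and 9, with a mean of 75.8% of theirs, and above C replicate 2. In DM-22 the log2 fold change was -0.05 (SE 0.34) with all controls and -0.35 (SE 0.24) without C replicate 2 (limma adjusted p = 0.978 and 0.394). In DM+SGLT2i it was -0.18 (SE 0.34) with all controls and -0.49 (SE 0.24) without C replicate 2 (limma adjusted p = 0.9997 and 0.350). For all diabetic mice without C replicate 2 it was -0.42 (SE 0.20, limma adjusted p = 0.269), and after scaling to the proximal tubule list 0.04 (SE 0.26, limma adjusted p = 0.920). Its nearest profile was that of Pbld2, at a root mean square difference of 0.05.

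Abcc2 (chr19:43782192-43840740) encodes MRP2, the ATP-driven luminal pump for glucuronide and glutathione conjugates. Of the 9 transporters, it was the 1 in which the diabetic groups did not overlap. It was at 284, 619 and 528 CPM in C, at 384 and 368 CPM in DM-22, and at 640 and 532 CPM in DM+SGLT2i. Both DM+SGLT2i mice were above both DM-22 mice, as in 2994 of 13976 genes tested (21.4%), while in 2802 genes both were below. Both DM-22 mice were below C replicates 8 and 9, as in 29.5% of all genes. In DM+SGLT2i against C the log2 fold change was 0.37 (SE 0.34) with all controls and 0.03 (SE 0.18) without C replicate 2 (limma adjusted p = 0.9997 and 0.946). The log2 fold change in DM+SGLT2i against DM-22 was 0.63 (SE 0.37, limma adjusted p = 0.881) with all controls in the fit and 0.63 (SE 0.18, limma adjusted p = 0.463) without C replicate 2, which enters this comparison through the estimate of the spread. In DM-22 against C it was -0.27 (SE 0.34, limma adjusted p = 0.858), and without C replicate 2 it was -0.60 (SE 0.18, limma adjusted p = 0.125). On the scale of the proximal tubule list the DM-22 mice were at 529 and 269, on either side of C replicates 8 and 9 at 424 and 415. The nearest profiles to Abcc2 were those of Greb1l (0.10) and the peroxisomal gene Ehhadh (0.12). Greb1l was at 11.6 and 12.3 CPM in DM-22 and at 18.2 and 15.3 CPM in DM+SGLT2i. Ehhadh was at 591 and 569 CPM in DM-22 and at 784 and 741 CPM in DM+SGLT2i. Both were picked from 9582 genes for this likeness, so their differences between groups are no independent result.

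**Figure D3:**
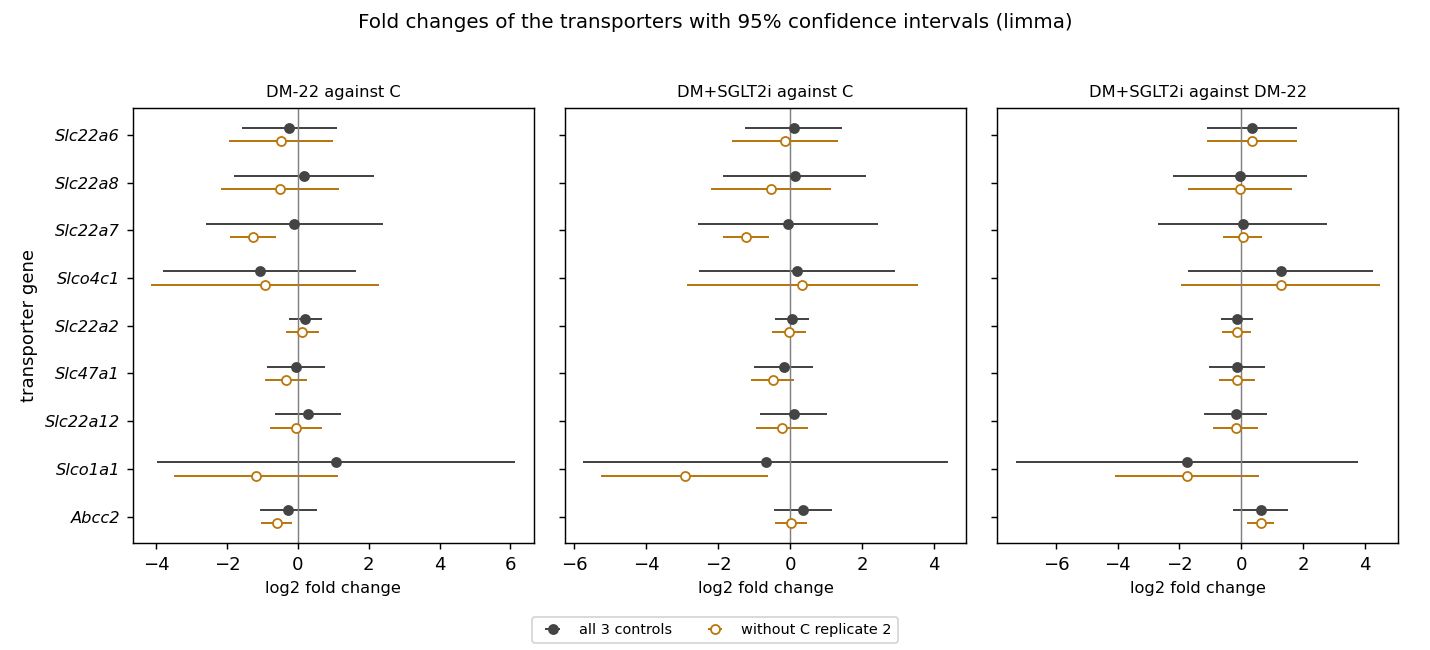
Log2 fold changes (horizontal axis) of the 9 transporters with 95% confidence intervals from limma in DM-22 against C, DM+SGLT2i against C and DM+SGLT2i against DM-22, with all 3 controls (filled) and without C replicate 2 (open). With all controls every interval includes 0, and without C replicate 2 the intervals of Slc22a7 in both diabetic groups (-1.28 and -1.23), Abcc2 in DM-22 (-0.60) and against DM-22 in DM+SGLT2i (0.63), and Slco1a1 in DM+SGLT2i (-2.93) do not, before adjustment over all genes.

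Counts of transporters were read against all genes. Without C replicate 2, 2 of 9 passed an unadjusted p under 0.05 in limma in DM-22 (Slc22a7 and Abcc2) against 25.2% of all genes, 2 of 9 in DM+SGLT2i (Slc22a7 and Slco1a1) against 17.9%, 1 of 9 between the diabetic groups (Abcc2) against 10.8%, and 1 of 9 for all diabetic mice (Slc22a7) against 21.7%. With all 3 controls, 0 of 9 had groups that did not overlap in the comparisons of DM-22, DM+SGLT2i and all diabetic mice with C, against 20.1%, 12.3% and 2.69% of all genes. When C replicate 2 was left out, 3 of 9 (Slc22a7, Slc47a1 and Abcc2) were lower in both DM-22 mice than in both controls (background 29.5%), 6 of 9 (all except Slc22a2, Slco4c1 and Abcc2) lower in both DM+SGLT2i mice (33.5%) and 2 of 9, Slc22a7 and Slc47a1, lower in all 4 diabetic mice (20.8%). Between the diabetic groups 1 of 9, Abcc2, was higher in both DM+SGLT2i mice (21.4%), and 0 of 9 were lower in both, beside 2802 of 13976 genes. Except for the 6 of 9 in DM+SGLT2i, these shares were near or under the background. The summed proximal tubule markers were also lower in both DM+SGLT2i mice, at 24205 and 28706 CPM, than in C replicates 8 and 9, at 44728 and 41326 CPM. Kap, androgen-dependent, was at 5808 and 10642 against 17573 and 16868 CPM. The other 15 markers summed to 18397 and 18064 against 27155 and 24457 CPM. Not every marker was lower: Aqp1 was at 1120 and 1418 against 1017 and 1031 CPM. The part of tissue makeup in the 6 of 9 was not tested. The median log2 fold change of the 9 genes without C replicate 2 was -0.50 in DM-22 and -0.23 in DM+SGLT2i, beside 0.01 and -0.02 over all genes tested, while with all controls it was -0.05 and 0.10.

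The other genes of these families and their partners comprised 57 genes in 4 lists, of which 46 were tested, and 0 passed the adjusted threshold in limma in any comparison. Of 17 other SLC22 carriers tested, 6 were higher and 11 lower in DM-22 (median log2 fold change -0.09), and 0 passed an unadjusted p under 0.05 in limma in DM-22 or DM+SGLT2i against C. In the same comparison 4 of 7 other OATP carriers were higher (median 0.07), as were 5 of 13 other efflux pumps and MATE genes (median -0.08) and 2 of 9 partners (median -0.24), a list of scaffold, regulator and dicarboxylate carrier genes. Without C replicate 2, 14 of 17 SLC22 carriers, 5 of 7 OATP carriers, 10 of 13 efflux genes and 9 of 9 partners were lower in DM-22, beside 49.4% of all genes, and 0 of them passed the adjusted threshold in limma. All 9 partners were also lower in DM-22 replicate 1 than in replicate 2. With all 3 controls, 1, 1, 4 and 1 of the 46 genes passed an unadjusted p under 0.05 in limma in DM-22 against C, DM+SGLT2i against C, DM+SGLT2i against DM-22 and all diabetic mice against C, beside 4.47%, 1.08%, 3.91% and 1.96% of all genes. Abcc4, Slco2b1, Slc13a2 and Slc22a3 were the genes that passed.

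Abcc4 encodes MRP4, a luminal pump for urate, cyclic nucleotides and anionic drugs. It was at 103, 93.6 and 62.2 CPM in C, at 120 and 105 CPM in DM-22, and at 219 and 159 CPM in DM+SGLT2i. The groups did not overlap in DM+SGLT2i against C, as in 12.3% of all genes. Both DM+SGLT2i mice were also above both DM-22 mice, as in 21.4% of all genes. C replicate 2 was the highest control. The log2 fold change in DM+SGLT2i against C was 1.14 (SE 0.26, unadjusted p = 0.00338, limma adjusted p = 0.9997), and against DM-22 it was 0.73 (SE 0.28, limma adjusted p = 0.881). The difference from C was 1.28 when C replicate 2 was left out (SE 0.25, limma adjusted p = 0.107).

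Slco2b1 encodes OATP2B1, a carrier of steroid sulfates and statins. It was at 42.3, 32.0 and 42.1 CPM in C, at 28.9 and 21.6 CPM in DM-22, and at 51.9 and 39.3 CPM in DM+SGLT2i. Both DM-22 mice were below all controls, in a comparison in which 20.1% of all genes had groups that did not overlap. They were also below both DM+SGLT2i mice, as in 21.4% of all genes. In limma its log2 fold change was -0.61 in DM-22 against C (SE 0.21, adjusted p = 0.804) and 0.84 in DM+SGLT2i against DM-22 (SE 0.24, limma adjusted p = 0.881). Without C replicate 2 the difference of DM-22 from C was -0.55 (SE 0.23, limma adjusted p = 0.206). Its unadjusted limma p was then 0.0545 and no longer under 0.05.

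Slc13a2, the luminal dicarboxylate and citrate carrier NaDC1, was at 66.5, 55.5 and 51.0 CPM in C, at 43.3 and 48.9 CPM in DM-22, and at 66.2 and 68.1 CPM in DM+SGLT2i. Its log2 fold change in DM+SGLT2i against DM-22 was 0.54 (SE 0.17, limma adjusted p = 0.881). Slc22a3, the cation carrier OCT3, was scarce, at 3.06, 1.33 and 0.876 CPM in C, 1.17 and 0.856 CPM in DM-22, and 5.15 and 2.38 CPM in DM+SGLT2i, with a log2 fold change of 1.42 in the same comparison (SE 0.53, limma adjusted p = 0.881). Uroplakin and keratin genes of the urothelium were highest in DM+SGLT2i replicate 1 as well, with Krt5 at 34.7 CPM there and between 0.278 and 5.64 CPM in the other mice, among them 0.307 CPM in DM+SGLT2i replicate 2. The summed fibroblast genes were highest in the same 3 mice as Slc22a3 (C replicate 2 and both DM+SGLT2i mice). Among these genes Dcn was an exception, at 51.5 CPM in DM-22 replicate 1 and 39.9 CPM in DM+SGLT2i replicate 2. The part of either cell type in the Slc22a3 values was not tested.

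Hnf4a was chosen for description after its values were seen. It was at 532, 1242 and 1200 CPM in C, at 729 and 1240 CPM in DM-22, and at 816 and 707 CPM in DM+SGLT2i. C replicate 2 was the lowest of the 7. DM-22 replicate 1 was below C replicates 8 and 9. Both DM+SGLT2i mice were too, as in 33.5% of all genes. The log2 fold change of Hnf4a in DM+SGLT2i against C was -0.29 (SE 0.44, limma adjusted p = 0.9997). Without C replicate 2 it was -0.69 (SE 0.29, limma adjusted p = 0.294). In DM-22 against C these were 0.04 (SE 0.44) and -0.36 (SE 0.29, limma adjusted p = 0.985 and 0.468). The part of Hnf4a in the transporter values was not tested.

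**Figure D4:**
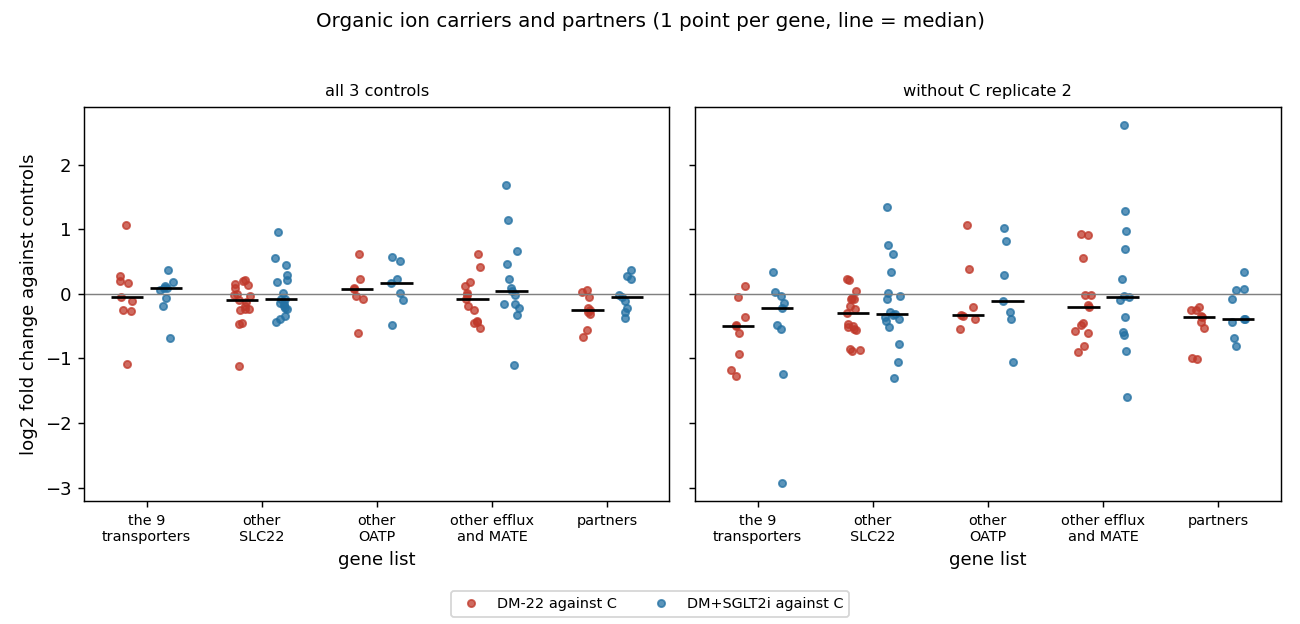
Log2 fold change against controls (vertical axis) of each tested gene in the 9 transporters, other SLC22 carriers, other OATP carriers, other efflux pumps and MATE genes, and partners, with all 3 controls (left) and without C replicate 2 (right), DM-22 in red and DM+SGLT2i in blue, and list medians as black lines. In DM-22 the list medians are between -0.24 and 0.07 with all controls and between -0.50 and -0.20 without C replicate 2.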

How the data were processed

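The authors deposited 1 log2 value per gene and library: CPM normalized by TMM with a constant averaging 2 reads added, which sets a floor of -4.66 (0.0395 CPM). The submitters' processing notes name bcl2fastq, FastQC, Trim Galore, STAR, edgeR and mm10. Versions and the strand setting of the counting are not given in the sources used here. RNA was polyA-selected and libraries were directional.

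CPM were recovered by removing the floor, and reads came out whole for 100% of values (tolerance 0.01). The fixed design assumed CPM and was kept on that scale. limma 3.58.1 (R 4.3.3, lmFit, eBayes with trend) was run on log2(CPM + 0.5) for the 13976 genes that reached 1 CPM in 2 or more libraries, with the 3 groups in 1 fit, two-sided, with Benjamini-Hochberg adjustment over all of them and a threshold of 0.05. The script was also run on simulated data in which all genes had 1 common spread, set below the median of these data, and no control stood apart. Those runs do not show how it performs on these data. Positions and exon lengths are from GENCODE M21 (GRCm38, 17537 of 17537 IDs matched) and promoters from RefSeq.

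The transporters and lists were chosen with earlier results of these data known. Of the wider lists, genes past an unadjusted p of 0.05 in a comparison with all 3 controls were named. Likeness was the root mean square difference of centred profiles, with the 2 nearest genes considered for each transporter. Alternatives changed the pseudocount, filter, scaling, test and libraries. 1 regulator and its motif are not reported here.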

Additional observations from a re-analysis of the deposited data

Results flagged for a closer look

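Slco1a1 in DM-22 replicate 2, at 443 CPM, stood far above the other 3 diabetic mice, at 50.9, 35.1 and 55.6 CPM. In CPM, the gap was 0.95 of the whole range of the 4 values, above the critical value of Dixon's test for 4 samples. Of the 9 transporters 1 was marked in this way. Chance marks about 1 in 20 groups only where all values come from a single normal distribution. The values here were CPM from both diabetic groups, and the log2 scale of the fits was not tested. The mark therefore cannot decide whether DM-22 replicate 2 is an outlier. The same mouse had the lowest female-biased list, at 23.7 CPM, and the lowest inner medulla and urothelium list, at 3.91 CPM, and the part of either in this value was not tested.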

How the results depend on the processing

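No setting other than those named here brought a transporter past the threshold or a gene count above 0. Of 36 log2 fold changes of the transporters (9 genes, 4 comparisons), 7 kept their direction in all alternatives: Slc22a2 in DM-22 and in all diabetic mice against C, Abcc2 in DM-22 and DM+SGLT2i against C and between them, Slc47a1 in DM+SGLT2i against C, and Slco1a1 between the diabetic groups. Of 612 alternative values, 538 kept direction and side of the threshold, 70 turned direction and 4 newly passed the threshold in the same direction. With 1 of the turned values, 5 alternative values passed the threshold. None of the 36 had passed the threshold with all libraries in the reported fit. Leaving out a mouse gave 0 to 2 genes in DM-22 against C, 0 to 17 in DM+SGLT2i against C and 0 to 3 in all diabetic mice against C, the highest count each time without C replicate 2. Over the left-out mice, log2 fold changes in DM-22 against C ran for Slc22a6 from -1.21 to 0.72, Slc22a7 from -1.28 to 0.51, Slc22a8 from -0.96 to 1.29, Slc22a12 from -0.049 to 0.59, Slco1a1 from -1.17 to 2.63, Slco4c1 from -3.30 to 1.14 and Slc47a1 from -0.36 to 0.26. In DM+SGLT2i against C they ran for Slc22a2 from -0.14 to 0.26, Slc22a6 from -0.14 to 0.25, Slc22a7 from -1.23 to 0.56, Slc22a8 from -0.54 to 0.50, Slc22a12 from -0.23 to 0.30, Slco1a1 from -2.93 to 0.54 and Slco4c1 from -0.057 to 0.44. In DM+SGLT2i against DM-22 they ran for Slc22a2 from -0.34 to 0.053, Slc22a6 from -0.62 to 1.31, Slc22a7 from -0.36 to 0.44, Slc22a8 from -1.16 to 1.09, Slc22a12 from -0.49 to 0.14, Slco4c1 from -0.95 to 3.49 and Slc47a1 from -0.44 to 0.17. In all diabetic mice against C they ran for Slc22a6 from -0.34 to 0.30, Slc22a7 from -1.25 to 0.53, Slc22a8 from -0.52 to 0.52, Slc22a12 from -0.14 to 0.39, Slco1a1 from -2.05 to 1.42, Slco4c1 from -0.97 to 0.51, Slc47a1 from -0.42 to 0.044 and Abcc2 from -0.29 to 0.27. Of the values that kept direction, Slco1a1 ran from -3.31 to -0.20 and Abcc2 from 0.50 to 0.77 in DM+SGLT2i against DM-22. In DM-22 against C, Abcc2 ran from -0.60 to -0.043 and Slc22a2 from 0.12 to 0.30. In DM+SGLT2i against C, Abcc2 ran from 0.029 to 0.59 and Slc47a1 from -0.49 to -0.022, and Slc22a2 in all diabetic mice ran from 0.048 to 0.23. A group left with 1 mouse was assumed to vary like the others.

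Array weights turned Slc22a8 (-0.42) and Slco1a1 (-1.14) in DM-22 against C, Slc22a6 (-0.089), Slc22a8 (-0.46) and Slc22a12 (-0.17) in DM+SGLT2i against C, and Slc22a8 (-0.42), Slc22a12 (-0.14), Slco1a1 (-2.53), Slco4c1 (0.59) and Abcc2 (-0.037) in all diabetic mice against C. In that last comparison the estimation of weights did not converge and 8835 genes passed, with Slc22a2, Slc22a7, Slc47a1 and Slco1a1 among them (limma adjusted p = 0.0189, 0.0140, 0.00146 and 0.00147). Scaling to the proximal tubule list without C replicate 2, chosen after seeing the data, gave 13, 190, 7 and 44 genes in DM-22 against C, DM+SGLT2i against C, DM+SGLT2i against DM-22 and all diabetic mice against C. It moved the median of all genes by 0.43, 0.42, 0.01 and 0.44, and only Slco1a1 passed among the transporters, in DM+SGLT2i against C. It turned Slc22a8 (-0.050), Slco1a1 (-0.72) and Slc47a1 (0.10) in DM-22, Slc22a8 (-0.077) in DM+SGLT2i, and Slc22a6 (0.15), Slc22a8 (-0.064), Slco1a1 (-1.59), Slco4c1 (0.18) and Slc47a1 (0.041) in all diabetic mice against C. Voom without C replicate 2, also added after seeing the data, gave 0, 4, 0 and 2 genes in the same order. Library totals without TMM moved the median of all genes in DM+SGLT2i against DM-22 by 0.11 and turned Slc22a8 there to 0.069. The causes were not tested. A fit of only the groups compared is the same fit for all diabetic mice against C.

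With the replicate number as a replicate block, DM+SGLT2i against DM-22 gave 0 genes at an adjusted p under 0.05 and 696 at an unadjusted p under 0.05 in limma. The deviations of the 2 replicate 1 mice from their group means correlated at -0.04 over 13976 genes. With 2 mice per group the replicate 2 deviations mirror them, so this single contrast cannot settle whether the mice are paired. The numbers were not taken to pair the mice. The block changed no call.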
